A study of Mus musculus with 12 samples.

Results

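Type I interferon-stimulated antiviral genes were examined by name: 41 genes were listed, and 39 of them were among the 27457 gene symbols measured. Mx1 and Mx2 were not analysed here. Unique molecular identifier (UMI) counts, each marking 1 captured transcript, came from single cells of 48 MC38 tumors. MC38 is a mouse colon carcinoma line derived from C57BL/6 mice, and its cells were injected under the skin of female mice aged 8 to 12 weeks. Hosts were C57BL/6J (B6) animals or F1 animals of C57BL/6J and a Collaborative Cross (CC) strain, an inbred strain that mixes the genomes of several founders. At a tumor size of 75 to 110 mm3 each mouse received 200 µg of a control antibody (isotype, 2A3) or of anti-PD-1 (aPD1, 29F.1A12) once, and the tumor was taken 48 h later. Sorted cells were mixed as 90% CD45+ and 10% CD45-, and 4 tumors, marked with hashtag antibodies, were pooled in each of 12 libraries.

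Responder strains, as the study classed them from tumor growth in other animals, were CC001/UncJ, CC002/UncJ and CC075/UncJ, with 10 isotype and 10 aPD1 tumors (15734 and 22598 cells). Non-responder strains were CC036/UncJ, CC079/TauUncJ and CC080/TauUncJ, with 9 isotype and 9 aPD1 tumors (19780 and 17756 cells). The sample labels give the strain and not the class. B6 and CC007/UncJ hosts, in no class, gave 5 isotype and 5 aPD1 tumors. Tumors held 53 to 3082 cells, and the macrophage counts summed per tumor held 46554 to 11778425 UMIs. The fewest cells were in the CC007 aPD1 tumor of pool 6 (53), the CC002 isotype tumor of pool 12 (248) and the B6 isotype tumor of pool 7 (345). Isotype and aPD1 tumors never carried the same hashtag, so the hashtag and the treatment cannot be told apart. A pair of CC080 tumors, isotype in pool 3 and aPD1 in pool 4, carries 1 animal identifier, and 4990 cell barcodes occur in more than 1 library. The authors' clusters, which carry numbers only, were named from marker genes: 10 clusters as monocyte/macrophage (68059 cells, called macrophages here), 9 as T/NK cells (12021 cells), 3 as dendritic cells (DC, 7817 cells), and 1 each as plasmacytoid DC (pDC), fibroblast and granulocytic cells.

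Type I interferons (interferon alpha and beta) bind a receptor that most cells carry. The receptor activates transcription factors that bind a DNA element, the interferon-stimulated response element, in front of antiviral genes. The products sense viral RNA (Ifih1, Ddx58), degrade it (the Oas genes with RNase L), block its translation (Ifit genes, Eif2ak2), modify proteins (Isg15, Herc6) or hold virus at membranes (Bst2, Ifitm3). In tumors, interferon released after sensing of tumor DNA is known for aiding the priming of T cells by dendritic cells. Interferon gamma, made by T and NK cells, induces an overlapping set of genes.

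The 39 genes lie on 15 chromosomes. The 5 Ifit genes lie together on chromosome 19 and the 6 Oas and Oasl genes on chromosome 5. Promoters of 32 of the 39 were found by symbol in RefSeq on GRCm38.p6. The core of the response element was searched as GAAA, any 2 bases and GAAA, on both strands, overlapping matches included, in the 250 bases before the transcription start. It was present in 16 of these 32 promoters and in 936 of 27025 promoters of all symbols (3.46%). The promoters of 4 genes with a match that are described in detail below are shown with the matched bases in capitals, beside that of Ifi44, the member with the widest range between strains, in whose window the search found no match. Isg15 had 3 overlapping matches, the nearest starting 66 bases before the transcription start, and Ifit3, Bst2 and Rsad2 had 2, 2 and 1. All 5 read 5′ to 3′ in the direction of the gene, on GRCm38.p6: Isg15 chr4:156200819-156201068 (minus strand), Ifit3 chr19:34583279-34583528 (plus), Rsad2 chr12:26456453-26456702 (minus), Bst2 chr8:71537473-71537722 (minus) and Ifi44 chr3:151749911-151750160 (minus). Starts in RefSeq and in the GENCODE annotation of the counts can differ, and 50 bases of the Ifi44 window lie inside the gene as GENCODE gives it.
Isg15: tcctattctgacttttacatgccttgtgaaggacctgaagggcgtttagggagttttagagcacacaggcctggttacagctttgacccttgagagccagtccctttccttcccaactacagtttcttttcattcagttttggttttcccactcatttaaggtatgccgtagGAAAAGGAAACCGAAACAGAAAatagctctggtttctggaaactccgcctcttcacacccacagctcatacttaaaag
Ifit3: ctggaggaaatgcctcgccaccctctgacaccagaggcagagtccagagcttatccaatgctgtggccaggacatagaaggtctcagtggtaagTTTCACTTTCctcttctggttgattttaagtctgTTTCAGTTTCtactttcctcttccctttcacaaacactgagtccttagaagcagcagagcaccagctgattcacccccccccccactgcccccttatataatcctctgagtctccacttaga
Rsad2: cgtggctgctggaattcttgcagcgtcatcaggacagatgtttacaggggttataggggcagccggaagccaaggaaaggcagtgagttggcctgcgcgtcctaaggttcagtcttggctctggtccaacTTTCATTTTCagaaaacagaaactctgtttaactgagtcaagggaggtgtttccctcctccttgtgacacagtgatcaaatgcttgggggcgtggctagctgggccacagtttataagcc
Bst2: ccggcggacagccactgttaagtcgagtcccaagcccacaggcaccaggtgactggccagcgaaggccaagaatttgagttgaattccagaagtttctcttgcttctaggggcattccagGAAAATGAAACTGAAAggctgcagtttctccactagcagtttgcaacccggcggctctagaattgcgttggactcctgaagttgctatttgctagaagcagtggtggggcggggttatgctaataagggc
Ifi44: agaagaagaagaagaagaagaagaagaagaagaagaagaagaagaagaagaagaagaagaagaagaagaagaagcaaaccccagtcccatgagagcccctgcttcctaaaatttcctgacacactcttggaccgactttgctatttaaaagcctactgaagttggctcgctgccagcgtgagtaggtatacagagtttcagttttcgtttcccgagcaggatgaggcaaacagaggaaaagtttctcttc
A match is a description of these letters, not of binding, and no match says only that the letters are not in this window.

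The first question was which cells carry these transcripts. Levels here are UMIs of a gene per 1000000 UMIs of a cluster (CPM), over all tumors, and are given with no test, since the clusters were made from the same cells and genes. Macrophage cluster 21 had the highest level of 34 of the 39 genes. It held 4300 cells, 4.62% of all cells, and 15.8% of the UMIs of the 39 genes. The mean of log2(CPM + 1) over the 39 genes was 8.42 in cluster 21, 7.09 in the granulocytic cluster 16, 6.36 in macrophage cluster 4 and lowest, 3.20, in T/NK cluster 13. The heat map of members by cluster shows cluster 21 as a single bright column.

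**Figure D1:**
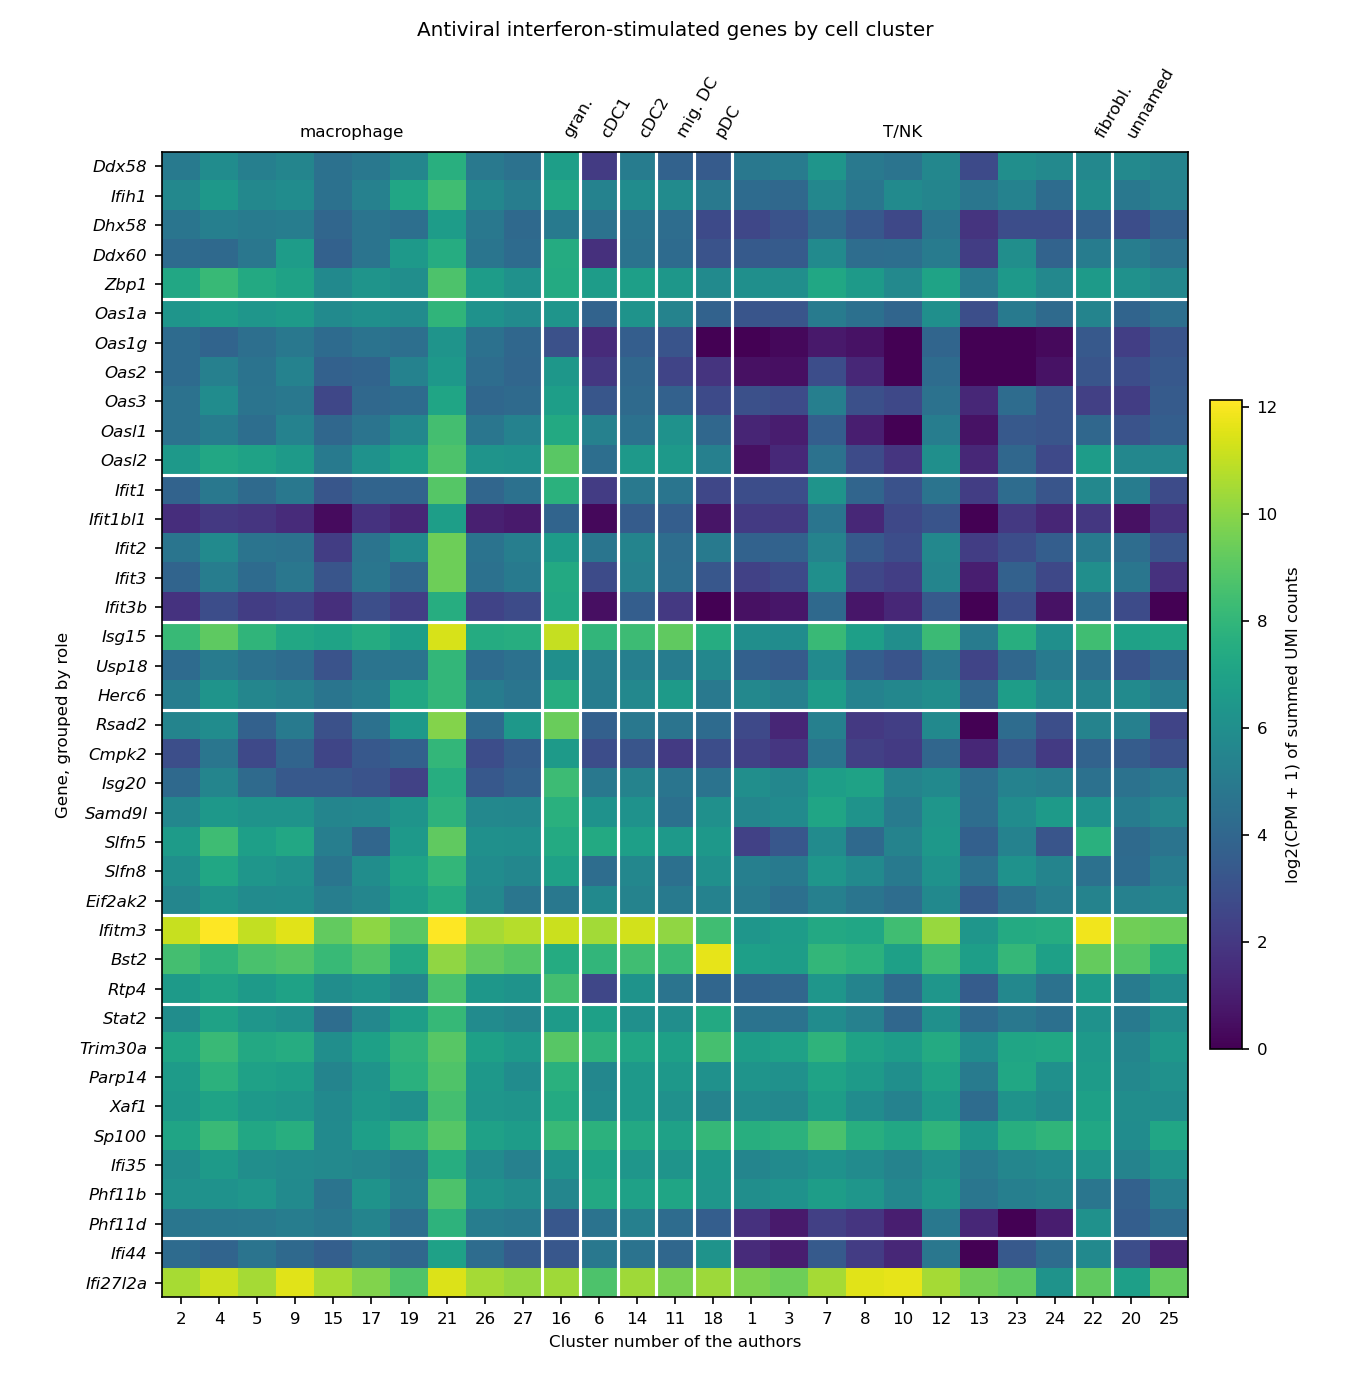
Level of each of the 39 genes (rows, ordered by role) in the 27 clusters (columns), as log2(CPM + 1) of counts summed over all tumors. Macrophage cluster 21 is highest for 34 of the 39 genes, while Ifitm3, Ifi27l2a and Bst2 are high in most clusters.

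The genes differed in how far cluster 21 stood above the other 9 macrophage clusters together. The IFIT proteins, which bind foreign RNA, were at the upper end. Ifit1bl1 was at 111 CPM in cluster 21 and 1.77 in the other macrophages, a ratio of 63.1. The ratio was 46.9 for Ifit3b, 34.7 for Ifit3, 30.7 for Ifit1 and 26.2 for Ifit2. Rsad2 (viperin, which makes a chain-terminating nucleotide) was at 933 and 33.1 CPM, a ratio of 28.2, and its chromosomal neighbour Cmpk2, a nucleotide kinase, had a ratio of 33.4. Cluster 21 held over 50% of all UMIs of these 7 genes, from 53.8% for Ifit1 to 63.5% for Ifit1bl1.

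Middle ratios were those of Oasl1 (14.1), the ISG15 protease Usp18 (13.3), the exonuclease Isg20 (13.1) and the ubiquitin-like modifier Isg15 (11.4). Isg15 was at 2726 CPM in cluster 21 and 239.9 in the other macrophages. The RNA sensors followed with ratios of 3.82 for Dhx58, 6.15 for Ddx58 (RIG-I), 6.71 for Ifih1 (MDA5) and 7.27 for Ddx60, and the nucleic acid sensor Zbp1 had 3.27. Among enzymes that make the activator of RNase L, the ratio was 3.23 for Oas1a, 3.88 for Oas1g, 4.22 for Oas2 and 6.48 for Oas3.

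Ifitm3 and Bst2, of the 3 membrane genes, were at the lower end, and the third, Rtp4, a chaperone of membrane receptors, had a ratio of 4.36. Ifitm3, which blocks fusion of virus with the cell, was the most abundant member over all cells (1829 CPM) and had a ratio of 2.35. Bst2 (tetherin, which holds budding virions at the cell surface) had 2.46, and Ifi27l2a, the next most abundant member (1378 CPM), had 1.95. In 5 genes cluster 21 was not the highest: Oasl2 (528 CPM), Isg20 (317 CPM) and Trim30a (509 CPM) peaked in granulocytic cluster 16, Bst2 in pDC cluster 18 (3256 CPM) and Ifi27l2a in T/NK cluster 10 (3294 CPM). Cluster 16 had a median of 815 UMIs per cell and cluster 21 of 3299.5. The least abundant member over all cells was Ifit1bl1 (7.52 CPM).

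Several members have near copies, so reads may have been divided between them. Of the 50-base windows of its transcripts, Ifit3 shared 51.2% with Ifit3b and Oas1a shared 57.6% with Oas1g, against 15.6% for Phf11b with Phf11d and 0.614% for Ifit1 with Ifit1bl1. The values of Ifit3, Ifit3b, Oas1a and Oas1g are therefore uncertain as separate genes.

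Differences among the 8 host strains were tested next in macrophage counts summed per tumor, with treatment as a term (edgeR quasi-likelihood F test, Benjamini-Hochberg adjustment over all genes, threshold 0.05). Of all 12510 genes tested, 51.7% passed, and 36 of the 39 members did. The exceptions were Ifit1 (adjusted p = 0.176), Ifit1bl1 (0.145) and Ifit2 (0.0711). The range between the highest and the lowest strain had a median of 0.86 on the log2 scale over the members and 0.57 over all genes tested. In isotype tumors alone 3 members and 7.32% of all genes passed. Each pool held tumors of 2 strains and each strain was in 2 to 4 pools, so strain and pool are partly confounded. With pool as a block, an alternative chosen after the data were seen, 15 members and 13.0% of all genes passed, and the median range over the members was 0.90. Of the members described next, Ifi44, Oasl1, Oasl2, Parp14, Bst2, Ifit3 and Rsad2 passed with the block, and Isg15 (adjusted p = 0.0735) and Ifitm3 (0.126) did not. In sums over cells, fewer expressing cells and less RNA per cell cannot be told apart.

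Ifi44, an interferon-induced gene of little known function that lies at chr3:151730922-151749960, had the widest range (4.19 on the log2 scale, adjusted p = 2.5e-18). The 6 CC002 tumors had 88.0, 90.3, 102, 114, 117 and 136 CPM in macrophages. In the 42 other tumors the lowest level was 3.7 and the highest 43.0 CPM, so the groups did not overlap. CC036 was lowest with 6.92 ± 3.26 CPM (SD, n = 6), and the remaining strains averaged 14.1 to 23.3 CPM. The difference was present in cells of several kinds: CC002 was above the other strains together in 21 of 27 clusters, with 546 against 87.3 CPM in cluster 21, 56.6 against 22.7 in cDC1 cluster 6 and 234 against 63.7 in pDC. In the T/NK clusters it was above in 4 of 9, at 85.9 against 16.1 CPM in cluster 12 and at nearly equal levels in clusters 7 (10.7 and 9.71) and 24 (18.68 and 18.60), and in cluster 3 it was at 0.44 against 1.13 CPM. Cluster 12 also had 9 of 10 macrophage markers at 100 CPM or more, beside 7 of 10 T/NK markers. In clusters 7, 24 and 23 the CC002 level rested on 6, 8 and 1 UMIs. The list of 5 cDC1 marker genes, summed in the macrophages of each tumor, was at 494 to 625.4 CPM in CC002 and at 266 to 549 CPM in the 42 other tumors, with medians of 539.6 and 395 CPM. The list holds Irf8, which macrophages carry as well, and 3 of the 5 genes reached 100 CPM in macrophage cluster 26. The sum is therefore no measure of cDC1 cells among the macrophages, and its part in the result was not tested.

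CC075 hosts had the highest mean of 18 of the 39 members, CC002 the lowest of 15 and CC036 the lowest of 12. Oasl1, an OAS-like protein that dampens translation of Irf7, ranged in CC075 from 44.6 to 114 CPM with a median of 92.2. In the 7 other strains it ranged from 18.4 to 73.8 CPM, so the groups overlapped (range of strains 1.48 on the log2 scale, adjusted p = 8.8e-05). Oasl2, its neighbour on chromosome 5, averaged 185 ± 40.1 CPM in CC075 (n = 6) and 87.9 ± 17.3 in CC002 (n = 6), the lowest strain (1.08, adjusted p = 0.00011). Parp14, an ADP-ribosyltransferase, was at 182 ± 28.6 CPM in CC075 (n = 6), followed by B6 with 149.99 ± 32.5 (n = 6), and the spreads of these strains overlapped (range 0.93, adjusted p = 8.7e-05). The lowest Parp14 level was that of CC079, 97.5 ± 12.1 CPM (n = 6).

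Other members had another order of strains. Bst2 was highest in CC001 (602 ± 54.0 CPM, n = 8), followed by CC079 (516 ± 93.8, n = 6), and lowest in CC036 (347 ± 58.5, n = 6), with a range of 0.88 on the log2 scale (adjusted p = 9.7e-05). With pool as a block the range of Bst2 was 0.52, and in isotype tumors alone it was 0.78 and not called (adjusted p = 0.133). Ifit3 was at 30.0 ± 10.4 CPM in CC002, 36.7 ± 13.4 in CC036 (n = 6 each) and 54.6 to 75.5 CPM on average in the other strains (range 1.36, adjusted p = 0.00028). Rsad2 was at 183 ± 51.2 CPM in CC075 and 54.1 ± 20.9 in CC079 (n = 6 each), the highest and lowest strain (1.80, adjusted p = 0.0025). Within CC002 and within CC036 a single tumor, with 235 and 220 CPM, stood far above the strain medians of 51.8 and 54.0 CPM. Isg15 averaged 520 ± 160 CPM in CC075 and 507 ± 90.8 in CC080, a responder and a non-responder strain, and 286 ± 109 in CC002 (n = 6 each, range 0.85, adjusted p = 0.0239). Ifitm3 was also highest in CC075 and then CC080, and lowest in CC036, with 2710 ± 429.9, 2474 ± 272 and 1594 ± 376 CPM (n = 6 each, range 0.81, adjusted p = 0.0124). The plot of levels by strain shows that strains of 1 class did not share a level.

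**Figure D2:**
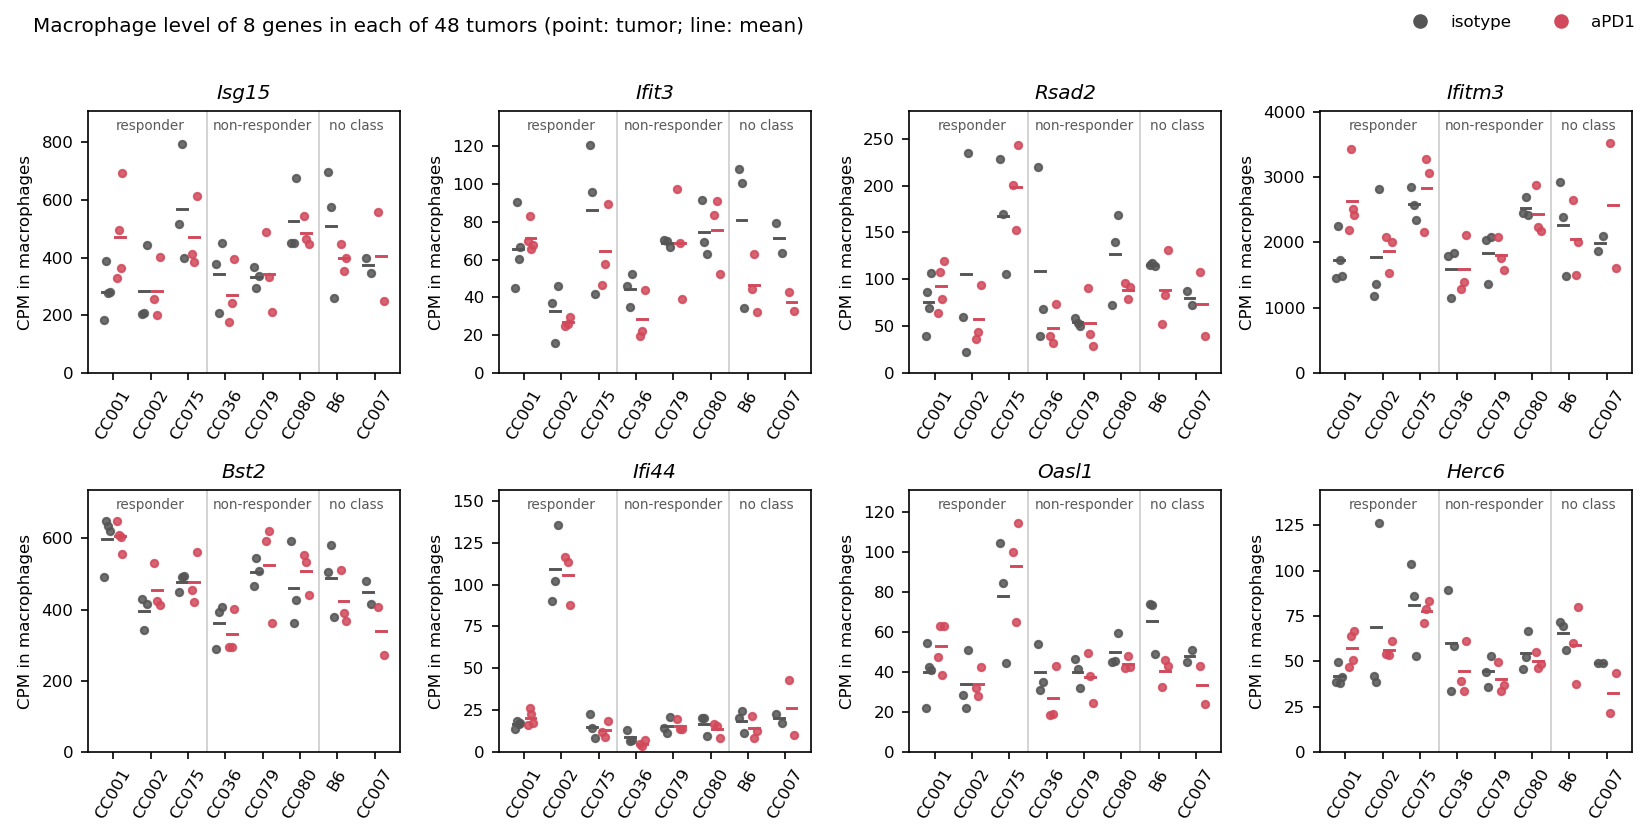
Macrophage level (CPM) of 8 members in each of the 48 tumors, by host strain, with isotype tumors in grey and aPD1 tumors in red. The 6 CC002 tumors lie above all others for Ifi44, and CC075 has the highest tumors for Oasl1.

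The ratio of the near copies Ifit3b and Ifit3 also differed by host. Ifit3b made up 44.2% ± 2.84 (SD, n = 6) of the UMIs of both genes in CC002 macrophages, with 38.7% in the lowest tumor. Strain means elsewhere were 9.81% to 20.7%, and the highest single tumor was at 23.4%. The lowest mean, that of CC007 (n = 4), took in a share of 0% in the aPD1 tumor of pool 6, which had 30 macrophages. Summed over the CC007 tumors, Ifit3b had 161 UMIs and Ifit3 had 941. The sum of both genes was 53.3 ± 16.04 CPM in CC002, between 43.2 ± 16.4 in CC036 and 90.0 ± 21.6 in CC080 (n = 6 each). Reads were aligned to a single reference while F1 hosts also carry CC alleles, and the part of this in the share was not tested.

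Whether the genes differ between responder and non-responder strains was asked in macrophages with both treatments together. Response class belongs to the strain, so tumors of a strain are not independent replicates of the class. The p-values between classes take no account of that. Of 11406 genes tested 6.37% passed, and of the members 1 of 39, Ifi44. Differences above 0 (higher in responder strains) were found for 28 of 39 members and 48.8% of all genes, with a median of 0.10 on the log2 scale against -0.004 for all genes. Ifi44 ranged from 8.6 to 136 CPM in responder and from 3.7 to 20.9 CPM in non-responder tumors, and 9 of 20 responder tumors were above every non-responder tumor. The difference was 1.78 ± 0.37 (SE) on the log2 scale (edgeR adjusted p = 0.0020). Without CC002 it was 0.46 (adjusted p = 0.223), so this strain decided the call, and with tumors summed per strain and treatment no member and 0.228% of all genes passed. Scaled by library size alone, 24 of 39 members and 35.6% of all genes were above 0, with a member median of 0.06. The direction rested on single strains: without CC075 13 of 39 members (47.0% of genes) were above 0, with a median of -0.06, and without CC036 20 of 39 (48.9% of genes), with a median of 0.01. Without CC002 33 of 39 (49.3% of genes) were above 0 and without CC080 34 of 39 (45.8% of genes), with medians of 0.22 and 0.22.

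The other members that head their families overlapped between classes. Isg15 was at 333 CPM in the median responder isotype tumor and at 377 CPM in the median non-responder isotype tumor (ranges 182 to 794 and 208 to 676). Over both treatments its difference was 0.07 ± 0.18 (edgeR adjusted p = 0.895). Ifit3 differed by 0.02 ± 0.21, Ifitm3 by 0.22 ± 0.13 and Bst2 by 0.24 ± 0.10, and none passed (adjusted p = 0.988, 0.366 and 0.165). Herc6, the main ligase for ISG15 in mice, had 0.38 ± 0.14 (adjusted p = 0.110), Oasl1 0.51 ± 0.19 (0.115) and Rsad2 0.57 ± 0.28 (0.253). By strain means, 0 of 39 members had all 3 responder strains above all 3 non-responder strains, a pattern that 3.23% of all genes had.

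The isotype and aPD1 tumors gave different values. Among isotype tumors 0.195% of 11255 genes passed and 0 of 39 members did, with 1 member (5.78% of genes) at an unadjusted p under 0.05 and 0 members (0.506% of genes) called by DESeq2. Differences were above 0 for 14 members and 49.6% of genes, with a median of -0.06 (all genes -0.001). This direction turned without CC001 (25 members and 47.6% of genes above 0), without CC002 (24 and 51.5%) and without CC080 (27 and 50.3%). Without CC075 4 members (50.4% of genes) were above 0, with a median of -0.28 and with 10 members and 9.29% of genes at an unadjusted p under 0.05. Among aPD1 tumors 6.34% of 11363 genes passed and 2 of 39 members did, with 35 differences above 0 (47.2% of genes) and a median of 0.25 (all genes -0.013). Scaled by library size alone, 28 members and 35.4% of genes were above 0, with a member median of 0.18. Without CC036 it was 24 members and 51.2% of genes, with a member median of 0.07. Without CC001 it was 28 members (49.3% of genes, median 0.10) and without CC075 31 members (47.0% of genes, median 0.14). With pool as a block, in the pools that held both classes, it was 28 members (47.8% of genes, median 0.16). The 5 cDC1 marker genes summed in macrophages were at 457 ± 105 CPM in responder and 344 ± 41.2 in non-responder aPD1 tumors, and at 447 ± 60.5 and 388 ± 97.2 CPM in isotype tumors (n = 10 and 9). Among aPD1 tumors the 10 T/NK marker genes had medians of 10.1 (5.0 to 59.5) and 5.37 (2.89 to 9.08) CPM and the 5 cDC2 marker genes means of 89.1 and 116 CPM in the classes. The cDC1 list holds Irf8, itself higher in responder macrophages, so its sum is no measure of cDC1 cells there. The part of these markers in the class differences was not tested. Herc6 was at 46.9, 62.7 and 83.4 CPM in the lowest, median and highest responder aPD1 tumor and at 33.5, 46.3 and 61.1 CPM in non-responder aPD1 tumors. The groups overlapped, but 6 of 10 responder tumors were above every non-responder tumor (0.55 ± 0.13, edgeR adjusted p = 0.0160). Herc6 was also the 1 member whose 3 responder strain means were above the 3 non-responder means, as in 4.74% of all genes. Ifi44 had 9.2, 20.5 and 117 CPM against 3.7, 13.5 and 19.6 CPM (2.01 ± 0.50, adjusted p = 0.0203), and without CC002 0.68 (adjusted p = 0.206).

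The remaining aPD1 differences of named members were not called by edgeR, and DESeq2, which called 4 members and 9.17% of all genes, also called Oasl1 (adjusted p = 0.0350) and Parp14 (0.0491). In edgeR Oasl1 had 0.77 ± 0.26 (adjusted p = 0.0808), Parp14 0.40 ± 0.14 (0.0855), Rsad2 0.90 ± 0.34 (0.117), Oasl2 0.48 ± 0.19 (0.142), Ifitm3 0.41 ± 0.16 (0.146), Bst2 0.26 ± 0.15 (0.312), Isg15 0.24 ± 0.24 (0.596) and Ifit3 0.03 ± 0.31 (0.976). By role, the median was 0.28 over the 5 sensors, 0.29 over the 6 OAS genes, 0.25 over the 5 IFIT genes and 0.02 over the 7 effectors on nucleic acid and translation. Without CC002 5 members and 5.63% of genes passed: Oasl1, Oasl2, Herc6, Rsad2 and Parp14, all higher in responder strains. Herc6 did not pass without CC075 (0.42) or without CC079 (0.49), and its difference was 0.42 to 0.64 whichever strain was left out. Ifi44 did not pass without CC036 (1.67) or without CC080 (2.13). With tumors summed per strain and treatment 0 members and 0.0595% of genes passed in this comparison.

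The pool sets, which differ in part in their strains, gave different directions. In pools 1 to 5 (CC001 and CC002 against CC079 and CC080) 5 of 39 differences were above 0 (50.3% over all genes), and 4 members were called against 2.18% of all genes. Ifi44 was higher there, and Samd9l (-0.34), Isg20 (-0.75) and Slfn5 (-0.58), which restrict viral replication, were lower in responder strains. In pools 8 to 12 (CC001, CC002 and CC075 against CC036 and CC080) 38 of 39 were above 0 (48.8% over all genes), and 5 members were called, all higher, against 3.17% of all genes: Ifi44, Oasl1, Ddx60, Bst2 and Ifit3b. Among isotype tumors of pools 1 to 5, 3 of 39 members were above 0 (50.3% of genes), with a median of -0.35, and 18 members and 5.81% of genes had an unadjusted p under 0.05. Among isotype tumors of pools 8 to 12, 31 of 39 were above 0 (50.1% of genes), with a median of 0.21, and 5 members and 5.36% of genes had an unadjusted p under 0.05. In edgeR 0 members were called in either set of isotype tumors (0.196% and 0.0869% of genes). Among aPD1 tumors 16 and 38 of 39 were above 0 in the 2 pool sets, against 5505 of 11354 and 5758 of 11508 of all genes. There 0 members were called in either set (1.62% and 1.11% of genes), with 5 and 27 members at an unadjusted p under 0.05 (15.8% and 18.4% of genes). With pool as a block over the classed tumors of pools that held both classes, Ifi44 (1.19) and, lower in responder strains, Ifi27l2a (-0.55) were called. Of all genes 8.64% passed in that fit. It left out pools 8 and 12, and pool 12 held CC002 tumors.

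The effect of aPD1 within a class was tested with strain as a term. In responder strains 0.0% of 11203 genes and 0 of 39 members passed in edgeR, while 13.2% of genes and 9 members had an unadjusted p under 0.05 and DESeq2 called 0.196% of genes and 0 members. The member differences (aPD1 minus isotype) were above 0 for 36 of 39 (50.1% of genes), with a median of 0.15 (all genes 0.0004). The smallest p-values were those of Ifih1 (0.31 ± 0.12, edgeR adjusted p = 0.284) and Oasl2 (0.36 ± 0.14, adjusted p = 0.284). In non-responder strains 0.0% of 11408 genes and 0 members passed, with 1.44% of genes and 2 members at an unadjusted p under 0.05 and 0.0% of genes and 0 members called by DESeq2. There 2 of 39 differences were above 0 (47.2% of genes), and the median was -0.15 (all genes -0.007).

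The difference between these 2 effects was tested itself, as the interaction of treatment and class. It was above 0 (a larger aPD1 effect in responder strains) for all 39 members and 53.3% of all genes, with member values from 0.09 to 0.65 and a median of 0.36 (all genes 0.015). It was not called for any of them, with 10 members at an unadjusted p under 0.05, and DESeq2 called 0 (0.0505% of genes). Without CC001 it was above 0 for 31 of 39 members (52.6% of genes), with a median of 0.15, and 1 member and 10.5% of genes had an unadjusted p under 0.05. Without CC036 it was above 0 for 33 of 39 (52.7% of genes), with a median of 0.26, and 5 members and 12.9% of genes had an unadjusted p under 0.05. Over all genes 0.00842% passed and 11.1% had an unadjusted p under 0.05. Rsad2 had a difference of 0.65 ± 0.46 (edgeR adjusted p = 0.588), beside Oasl1 (0.63 ± 0.26, 0.385), Oasl2 (0.50 ± 0.21, 0.385) and Parp14 (0.45 ± 0.16, 0.367).

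Pairs of an isotype and an aPD1 tumor of the same strain and pool varied widely. The mean of log2(CPM + 1) over the 39 members was higher after aPD1 in 7 of 10 responder pairs, with a median change of 0.21 (from -0.51 to 0.65), and in 4 of 9 non-responder pairs, with a median of -0.07 (from -0.95 to 0.21). All 4 CC001 pairs were higher after aPD1, by 0.13 to 0.58. In CC075 the change was -0.51 and -0.48 in pools 9 and 10, and 0.65 in pool 11, where 38 of 39 members were higher. In CC002 it was -0.47 in pool 12, whose isotype tumor had 248 cells, and above 0 in the other 2 pairs.

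**Figure D3:**
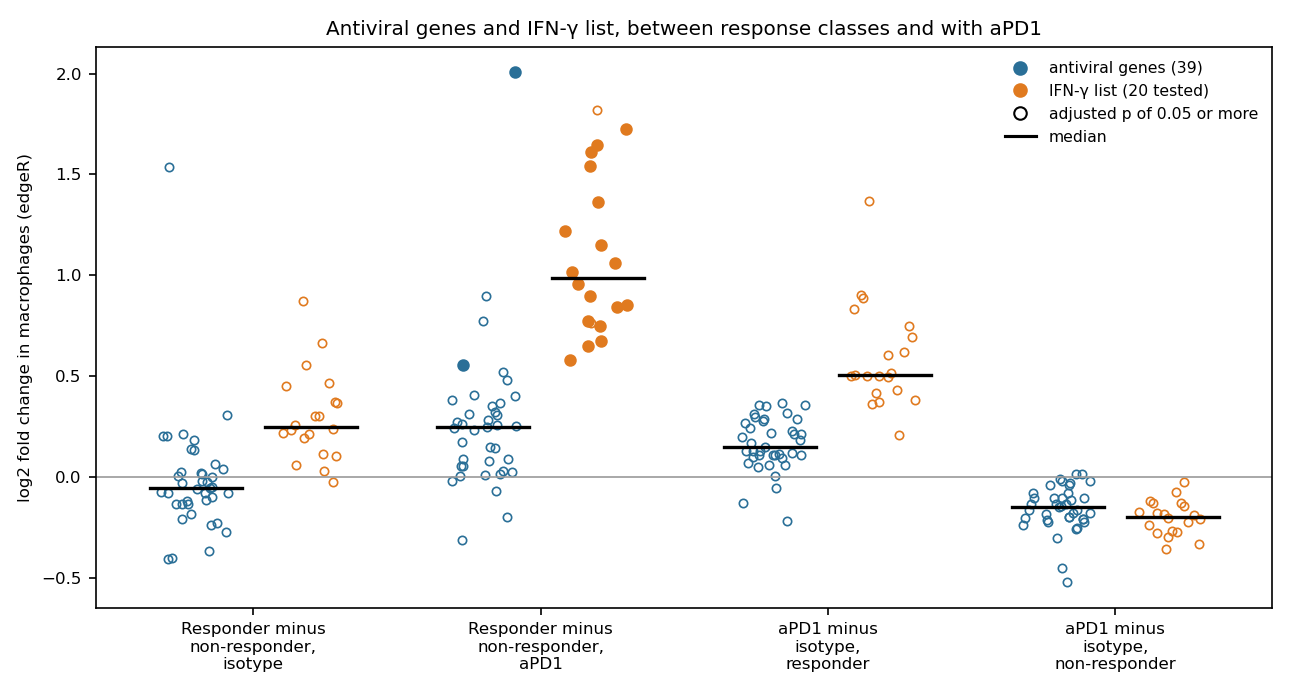
Log2 fold changes in macrophages of the 39 members beside the 20 tested genes of the interferon gamma list, for the class difference in isotype and in aPD1 tumors and the aPD1 effect in responder and non-responder strains. Filled points passed an adjusted p of 0.05: 0 and 2 members and 0 and 18 listed genes in the first 2 comparisons, and none in the other 2.

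Since cluster 21 held much of the signal of the IFIT genes and Rsad2, the largest macrophage clusters were tested one by one. Clusters 2, 26 and 5 held 70.6% of all macrophages. The share of cluster 21 among macrophages, given without a test because the members lead that cluster, was 6.36% ± 3.31 (n = 10) in responder isotype, 4.92% ± 1.52 (n = 10) in responder aPD1, 6.80% ± 1.85 (n = 9) in non-responder isotype and 6.58% ± 2.502 (n = 9) in non-responder aPD1 tumors.

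Cells had been assigned to clusters from the same genes, so which cells remain in a cluster other than 21 depends on the values compared, and the p-values within clusters take no account of this. Within clusters no fit with tumors summed per strain or with a strain left out was run. The members that passed between classes within these clusters were all higher in responder strains. In cluster 2, 5 of 37 tested members passed (3.68% of all genes), namely Ifi44, Oasl1, Herc6, Rsad2 and Ifit2. In cluster 26, 7 of 37 passed (7.6% of all genes), the same 5 with Slfn8 and Parp14. In cluster 5, 5 of 35 passed (4.17% of all genes), namely Ifi44, Oasl1, Herc6, Ifit2 and Ifit1. Among aPD1 tumors the counts were 10 of 37 (7.48% of all genes), 7 of 37 (6.3%) and 8 of 36 (5.05%), and Ifi44, Oasl1, Herc6 and Ifit2 were among them in all 3 clusters. Among isotype tumors 0 members passed in any of the 3 clusters, against 0.129%, 0.125% and 0.175% of all genes in clusters 2, 26 and 5. At an unadjusted p under 0.05 there were 5, 1 and 4 members, and 3.84%, 5.97% and 5.75% of genes.

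Herc6 in cluster 2 was at 37.6, 45.3 and 66.1 CPM in the lowest, median and highest responder aPD1 tumor and at 16.1, 25.0 and 46.9 CPM in non-responder aPD1 tumors, a difference of 0.89 ± 0.16 on the log2 scale (edgeR adjusted p = 0.0018). Oasl1 was at 12.5, 31.1 and 71.7 CPM against 8.0, 11.6 and 24.1 CPM (1.28 ± 0.28, adjusted p = 0.0086). Rsad2 was at 16.9, 60.5 and 184 CPM against 5.3, 22.3 and 44.0 CPM (1.79 ± 0.41, adjusted p = 0.0111), and Ifit2 at 24.6, 33.1 and 63.6 CPM against 6.7, 15.2 and 36.1 CPM (1.14 ± 0.26, adjusted p = 0.0102). The ranges of the groups overlapped for each of the 4 genes. In cluster 26 the differences of Herc6, Oasl1, Rsad2 and Ifit2 were 0.85, 1.32, 1.87 and 1.33, and in cluster 5 they were 0.80, 1.05, 0.97 and 0.91, of which Rsad2 in cluster 5 was not called (adjusted p = 0.177).

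The interaction was called in cluster 2 for Ifih1 (0.74 ± 0.18, edgeR adjusted p = 0.0476), Oasl1 (1.15 ± 0.27, 0.0476) and Parp14 (0.64 ± 0.14, 0.0370), against 0.328% of all genes, and for no member in clusters 26 and 5 (0.0% and 0.135% of genes). In these 2 clusters 21 and 16 members had an unadjusted p under 0.05, as did 8.83% and 11.3% of all genes. Leaving out cluster 21, an alternative chosen after the data were seen, removes cells that were grouped by high levels of the members, and its counts carry the same limit. With the other macrophage clusters summed, 4 of 38 tested members passed between classes (6.86% of all genes) and 10 of 39 among aPD1 tumors (6.69%), all higher in responder strains. The aPD1 difference was then above 0 for 39 of 39 members in responder strains (50.2% of genes) and for 1 of 38 in non-responder strains (47.5% of genes). In responder strains 31 members and 14.3% of genes had an unadjusted p under 0.05, and 0 members and 0.0% of genes were called. The plot of single clusters shows these levels by tumor.

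**Figure D4:**
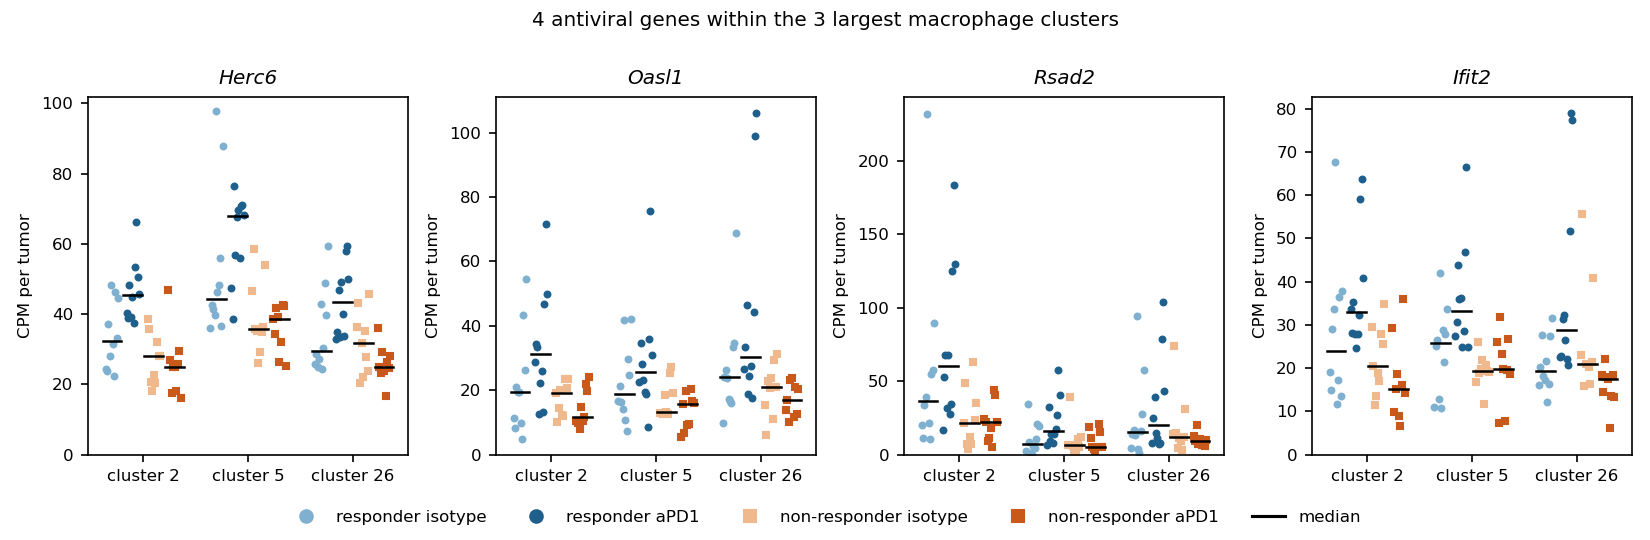
Level (CPM) of Herc6, Oasl1, Rsad2 and Ifit2 per tumor within macrophage clusters 2, 5 and 26, in 4 groups of response class and treatment, with each point 1 tumor. The responder aPD1 tumors have the highest median in each panel, and the ranges of the groups overlap.

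In T/NK cells, with all pools together, the members leaned to lower levels in responder strains. Of 27 members with enough counts to test, 2 differed above 0 (49.7% of all genes) and 25 below, with a median of -0.32 (all genes -0.001), and 2 were called, both lower in responder strains, against 2.26% of all genes. Ddx60, a helper of RNA sensing, was at 6.4, 17.1 and 36.8 CPM in the lowest, median and highest of 20 responder tumors and at 17.001, 27.3 and 49.5 CPM in 18 non-responder tumors. The groups overlapped, with 10 of 20 responder tumors below every non-responder tumor (-0.73 ± 0.16, edgeR adjusted p = 0.0052). Eif2ak2 (PKR, the kinase that stops translation on double-stranded RNA) was at 6.4, 23.5 and 45.2 CPM against 17.5, 33.6 and 86.7 CPM (-0.58 ± 0.15, adjusted p = 0.0253). DESeq2, like the fit scaled by library size alone (2.62% of all genes), also called Usp18 (-0.68), Ifi27l2a (-0.79) and Rtp4 (-0.69), against 3.47% of all genes, and with pool as a block 8 members and 4.31% of genes passed. By strain means, 6 of 27 members had all 3 responder strains lowest, against 4.99% of all genes: Ifih1, Ddx58, Usp18, Ddx60, Slfn5 and Slfn8.

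The calls changed with the strains included. With 1 strain left out, Ddx60 differed by -0.88 to -0.58 and Eif2ak2 by -0.74 to -0.38. Without the pair of tumors of 1 animal identifier 1 member passed, Ddx60 (2.27% of genes). Without CC002 and without CC080, 0 members passed (1.22% and 4.36% of genes) and the member median was -0.30 and -0.32, without CC036 9 passed (4.19% of genes), and with tumors summed per strain and treatment 0 passed (0.308% of genes). In pools 1 to 5, 4 members passed, all lower (1.49% of all genes), and in pools 8 to 12, 0 passed (0.564% of genes), with 2 members and 16.5% of genes at an unadjusted p under 0.05. The lean was in pools 1 to 5, with 0 of 26 members above 0 (49.5% of genes) and a median of -0.51, and was small in pools 8 to 12, with 11 of 25 above 0 (49.8% of genes) and a median of -0.09. In macrophages of pools 1 to 5 members also lay mostly below 0, with 5 of 39 above 0 (50.3% of genes) and a median of -0.20. T/NK cells also differed in makeup: cluster 3 made up 35.3% and 32.0% of them in responder isotype and aPD1 tumors and 13.2% and 9.31% in non-responder tumors, cluster 7 made up 18.1%, 20.4%, 30.1% and 24.9%, and cluster 8 made up 16.1%, 16.6%, 19.6% and 32.4%. Ddx60 was lower in responder than in non-responder cells in 4 of 9 T/NK clusters, at 51.5 against 67.8 CPM in cluster 7, 8.3 against 17.8 in cluster 3 and 16.5 against 24.2 in cluster 8. Of the 5 others the widest gap was in cluster 23, at 71.0 against 47.7 CPM from 9 and 7 UMIs. Eif2ak2 was lower in 6 of 9 clusters, at 20.1 against 25.0 CPM in cluster 3 and 20.2 against 29.5 in cluster 8, and was at 42.2 against 39.03 in cluster 7. The summed level of 10 macrophage marker genes in T/NK cells, none of them at 0, was 380 to 1496 and 427 to 2045 CPM in responder isotype and aPD1 tumors, and 488 to 2056 and 649 to 4345 CPM in non-responder tumors. Its medians were 1092 and 1038 CPM in responder isotype and aPD1 tumors, and 761 and 1542 CPM in non-responder tumors. The T/NK marker list itself averaged 5777 and 5654 CPM in responder isotype and aPD1 tumors, and 4411 and 3968 CPM in non-responder tumors. B cell markers averaged 55.0 and 54.6 against 94.2 and 96.4 CPM, and MC38 markers 4.03 and 4.37 against 8.56 and 11.1 CPM. The part of makeup and of these markers in the result was not tested. The pairs of T/NK cells were higher after aPD1 in 9 of 10 responder pairs (median change of the mean log2 level 0.32, from -0.57 to 1.36) and in 5 of 9 non-responder pairs (median 0.18, from -0.75 to 0.77). This mean takes all 39 members, also those with too few counts to test, so zeros in small sums can lower it. T/NK sums held 221457 to 957321 UMIs in responder isotype and 522296 to 2256001 in responder aPD1 tumors. In non-responder tumors they held 306146 to 1834965 and 80784 to 605409 UMIs. The part of depth in these changes was not tested. The interaction in T/NK cells was above 0 for 21 of 28 members (52.0% of genes, median 0.21), and without CC001 for 15 of 30 (50.7% of genes). It was called for 0 of 28 members (0.0% of all genes, 1 member and 5.1% of genes at an unadjusted p under 0.05, 0 members and 0.0% of genes by DESeq2).

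In dendritic cells 36 members were tested and 1 was called, Ifi44, against 1.17% of all genes. It ranged from 0.0 to 94.7 CPM (median 22.8) in responder and from 3.9 to 24.8 CPM (median 13.7) in non-responder tumors, and 8 of 20 responder tumors were above every non-responder tumor (1.29 ± 0.34, edgeR adjusted p = 0.0441). Without CC002 the difference was 0.14 (adjusted p = 0.942). It also lost the call without CC036, without CC079, without CC080 and without tumors under 500 cells, and with pool as a block the 1 member called was Isg20 (-0.71), against 3.87% of all genes. Differences were above 0 for 10 of 36 members (49.7% of genes), with a median of -0.10 (all genes -0.001). This lean moved with the tumors included. Members above 0 were 16 of 36 (49.7% of genes, median -0.01) without the pair of tumors of 1 animal identifier, 18 of 35 (48.9%, median 0.002) in pools 8 to 12, 17 of 36 (49.6%, median -0.02) without CC079 and 4 of 36 (51.0%, median -0.25) without CC036. The summed level of 5 cDC1 marker genes in DC was on average 1047 and 1142 CPM in responder isotype and aPD1 tumors and 841 and 773 CPM in non-responder tumors. That of 5 cDC2 marker genes was 641 and 694 CPM against 959 and 892 CPM. The part of this shift in the DC results was not tested. The DC sums of a tumor held at most 1908120 UMIs.

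Other genes of the type I interferon pathway were counted from a list of 37, of which 34 were measured. The 10 measured ligand genes were close to the limit of detection: Ifnb1 had 103 UMIs in all 93126 cells, Ifna4 11 and Ifna2 3, and none was abundant enough to test. Of 24 pathway genes tested in macrophages, 2 passed between classes, a share close to the 6.37% of all genes, both higher in responder strains: Irf8 (0.34 ± 0.08, edgeR adjusted p = 0.0062), a transcription factor of myeloid cells, and Tmem173 (STING, the adaptor of DNA sensing, 0.34 ± 0.10, adjusted p = 0.0232). The next was the receptor subunit Ifnar2 (0.15 ± 0.05, adjusted p = 0.0632). Among aPD1 tumors 5 of 24 passed (6.34% of all genes), all higher, among them Irf8 (0.47), Tmem173 (0.54), the ISG15-activating enzyme Uba7 (0.44) and the feedback inhibitor Socs1 (0.78). With tumors summed per strain and treatment 0 of 24 passed between classes or among aPD1 tumors. There 3 and 5 had an unadjusted p under 0.05, as did 1363 of 13175 and 1025 of 13454 of all genes. Among isotype tumors 0 of 24 passed in edgeR (0.195% of all genes), with 0 at an unadjusted p under 0.05 (5.78% of all genes). In the tests of aPD1 within responder and non-responder strains 0 passed (0.0% of all genes in both), with 6 and 1 at an unadjusted p under 0.05 (13.2% and 1.44% of all genes).

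A list of 21 genes better known as targets of interferon gamma was read beside the members, since interferon gamma induces an overlapping set of genes. In macrophages 12 of 20 tested passed between classes (6.37% of all genes), all higher in responder strains, with a median of 0.59, against 1 of 39 members and a median of 0.10. The smallest p-values were those of the MHC class II gene H2-Eb1 (1.21 ± 0.15, edgeR adjusted p = 7.6e-07), the chemokine Cxcl9 (1.16 ± 0.25, 0.0029) and the immunoproteasome gene Psmb8 (0.45 ± 0.10, 0.0032). Among aPD1 tumors 18 of 20 passed (6.34% of all genes, median 0.99), against 2 of 39 members (median 0.25). With tumors summed per strain and treatment 1 of 20 passed in each of these 2 comparisons (0.228% and 0.0595% of all genes), with medians of 0.63 and 0.97. Among isotype tumors 0 of 20 passed in edgeR (0.195% of all genes, median 0.25), with 2 at an unadjusted p under 0.05 (5.78% of all genes). The aPD1 effect was above 0 for 20 of 20 in responder strains (median 0.50, 19 at an unadjusted p under 0.05, as had 13.2% of all genes) and for 0 of 20 in non-responder strains (median -0.20), with 0 called in both. In T/NK cells 0 of 18 passed between classes in edgeR (2.26% of all genes), with 4 at an unadjusted p under 0.05 (14.7% of all genes). In dendritic cells 4 of 19 passed (1.17% of all genes) and, with tumors summed per strain and treatment, 0 of 20. In those sums 10 had an unadjusted p under 0.05, and the share of all genes is not given here. Of the 12 called between classes in macrophages, H2-Eb1, H2-Ab1, H2-Aa, Tap1, Psmb8 and Psmb9 lie in the MHC region. The study reports a response locus that holds this region, so these genes are not separate cases. Reads were aligned to a single reference while F1 hosts also carry CC alleles. The part of the locus and of alleles in these counts was not tested. The values of both lists come from the same tumors, and the difference between the lists was not tested.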

How the data were processed

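The tumors, groups and doses are those described above. The authors deposited raw UMI counts per gene and cell, with the library, treatment, animal, strain, hashtag and cluster number of each cell. Per the study's methods and the submitters' notes, they aligned reads to GRCm38 (mm10) with GENCODE annotation using Cell Ranger, assigned hashtags to tumors, removed cells of high mitochondrial or ribosomal share, and clustered cells with Seurat 5.0.1. No doublet caller was run here, since hashtag assignment was the authors' and its part in removing doublets is not given in the sources used here. A UMI counts 1 molecule, and p-values measure the spread between tumors. In the class tests each tumor counted as a replicate, so this spread mixes that within strains and that between strains. It is not the spread between strains.

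The members and the other lists were chosen with earlier results of these data known. Clusters were named from marker lists, where at least 3 markers and 30.0% of a list reached 100 CPM, a share lowered after the data were seen (cluster 24 had 4 of 10 T/NK markers). Counts were summed per tumor over the macrophage, T/NK or DC clusters (Python 3.11.15, pandas 2.3.3). Sums were tested with edgeR 4.0.16 in R 4.3.3 (TMM, filterByExpr, quasi-likelihood F test), with p-values adjusted by Benjamini-Hochberg over all genes tested, and the scripts were checked on simulated data. The fits held treatment (classes, strains) or strain (treatment, interaction) as terms. CPM values in the text are unadjusted for TMM, scores used a pseudocount of 1, and a log2 difference is followed by its SE. Named by rule were Isg15, Ifit3, Rsad2, Ifitm3 and Bst2, the members called between classes, the 5 of smallest p over strains, and up to 3 called in each other comparison. Other members named beside counts were chosen after their values were seen. Alternatives were another normalization (DESeq2 size factors, library size alone), no filter, DESeq2 1.42.0, blocks, tumors summed per strain, subsets of tumors or pools, each strain left out, and single clusters. Between classes, the pool block took only pools that held both classes, which left out pools 8 and 12. The hashtag sequence table stayed unused. The value of 1 gene of the pathway list is not reported here.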

Additional observations from a re-analysis of the deposited data

How the results depend on the processing

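Counts of members called were the quantity recomputed. The share of all genes called also moved with the setting, so a count alone is no result about the members. Over all settings, 93 recomputed results stayed within 1.5 times the reported count and 47 did not. This tally takes a count of 0 that stayed 0 as kept. It also holds the mean over members with another pseudocount, judged by its SD. Of the recomputed values of single members 106 kept their side of the threshold, 38 lost it and 0 reversed. A range over strains is never below 0, so values of that test could not reverse. Between response classes in macrophages (1 member called) the count was 2 with pool as a replicate block, 0 with tumors summed per strain and treatment or, added after the data were seen, per strain, 4 in pools 1 to 5, 5 in pools 8 to 12, 5, 7 and 5 in clusters 2, 26 and 5 alone, 4 without cluster 21 (also added later), and 1 to 3 with 1 strain left out. Among aPD1 tumors (2 called) it was 4 with DESeq2, 0 with sums per strain and treatment and in each pool set, 10, 7 and 8 in clusters 2, 26 and 5, 10 without cluster 21, and 1 to 5 with 1 strain left out. The interaction (0 called) gave 3 in cluster 2, and the test over strains (36 called) gave 15 with pool as a replicate block (added after the data were seen) and 3 in isotype tumors alone. In T/NK cells (2 called) it was 5 with library size alone and with DESeq2, 8 with the pool block, 0 with sums per strain and treatment, 1 without the 2 tumors of 1 animal identifier, 4 and 0 in pools 1 to 5 and 8 to 12, and 0 to 9 with 1 strain left out. In dendritic cells (1 called) it was 0 with those sums, without tumors under 500 cells and in pools 8 to 12, and 0 to 4 with 1 strain left out. The 4 without CC001 were Ifi44, higher, and Usp18 (-0.59), Ifi27l2a (-0.89) and Ifit3 (-1.72), lower in responder strains. The share of all genes called in that fit is not given here, so these 4 calls are no result about the members. Under the pool block the 1 call was Isg20, lower. A block of the pair of tumors changed no call in the tests of aPD1. The cause of these changes was not tested. Sums per strain leave fewer values in each class, and subsets hold fewer tumors. With 3 strains in a class, a difference of 1 strain can carry a class difference, and the depth of T/NK and DC sums left 27 and 36 members to test.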

Other observations

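Ifi44l, a neighbour and relative of Ifi44 that was not among the listed genes, was looked at after the values of Ifi44 were seen. It lies at chr3:151758737-151762892 on GRCm38, and the annotation marks it as a possible error of the reference genome. All 6 CC002 tumors had UMIs of Ifi44l, at 22.9 to 55.7 CPM in macrophages, with 1082 UMIs over all CC002 cells. In the 7 other strains 5 UMIs were found in 4 of 42 tumors, among 364116029 UMIs in all. Cells of cluster 21 in CC002 had 113 CPM (144 UMIs) and cells of cluster 2 had 26.9 (321 UMIs). The level of pDC, 18.8 CPM, rested on 2 UMIs. Ifi44 and Ifi44l shared 0 of 4015 windows of 50 bases.

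Ifi27l2a was chosen after its values were seen as the 1 member lowest in CC075, which was highest for 18 others. It was at 793 ± 270 CPM (SD, n = 6) in CC075 macrophages, with a range of 475 to 1186, and at 1924 ± 396 CPM in CC080 (n = 6). CC075 cells were above the cells of the other strains in 3 of 27 clusters only, and over all cells they had 754 against 1453 CPM.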
